A study of Mus musculus with 17 samples.

Results

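Oxidative phosphorylation genes were examined in whole mammary glands of mice of 4 genotypes. The genes were chosen by name alone: every row of the table with 1 own symbol that starts with Nduf, Uqcr or Atp5, that is Sdha, Sdhb, Sdhc or Sdhd, or that starts with Cox followed by a numeral of cytochrome oxidase's structural subunits. This rule gave 87 of the 30843 loci of the table. Of these, 85 had at least 1 FPKM in at least 2 of the 8 columns, a filter that 12188 of the 20420 loci with 1 own symbol passed. FPKM scales the number of sequenced fragments to the length of the transcript and to the total of the library, so levels of different genes can be compared per length. The 85 genes comprise 73 structural subunits (33 of complex I, 4 of complex II, 8 of complex III, 13 of complex IV and 15 of complex V), the 3 muscle and brown fat isoforms Cox6a2, Cox7a1 and Cox8b, and 9 genes that share the prefixes but are not structural subunits. The 73 are called common subunits here. Most tissues share nearly all of them, but they include the tissue-restricted forms Cox4i2 and Cox6b2.

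Oxidative phosphorylation is the route by which mitochondria make most of a cell's ATP. Complexes I (NADH dehydrogenase) and II (succinate dehydrogenase) pass electrons to ubiquinone, complex III passes them to cytochrome c, and complex IV (cytochrome c oxidase) passes them to oxygen. Complexes I, III and IV pump protons across the inner membrane, and complex V (ATP synthase) uses the return of those protons to make ATP. Most subunits are encoded in the nucleus and a few core ones in mitochondrial DNA, which were not analysed here. Skeletal muscle and brown fat replace some complex IV subunits by isoforms of their own.

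All mice were nulliparous C57Bl/6 females. AROM mice carried tet-op-CYP19A1, a human aromatase transgene by its name, and CERM mice carried tet-op-Esr1, an oestrogen receptor alpha transgene; both also carried MMTV-rtTA, the transactivator that switches such transgenes on from a promoter active in mammary epithelium. BRCA mice were Brca1fl11/fl11/MMTV-Cre/p53+/-, in which Cre from the same kind of promoter deletes part of Brca1 and 1 copy of the p53 gene is missing throughout. WT mice were wild type. The sources used here give neither ages nor an inducer. The labels list 2 single-end libraries for each genotype, and 3 AROM, 3 CERM, 2 BRCA and 1 WT paired-end libraries. The table holds 1 value per gene, genotype and read layout. No value for a separate library was used, so no error between animals can be given, no test was made, and every difference below is between pooled values. The layouts may come from the same animals, since the protocol describes libraries sequenced both ways, and are not independent repeats.

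Of the genes the genotypes target, Trp53 stood at 12.3 FPKM in the single-end BRCA column against 41.1 FPKM in WT, and at 12.1 FPKM against 34.5 FPKM in the paired-end columns. Esr1 stood at 8.49 FPKM in the single-end CERM column against 7.27 FPKM in WT, and at 8.41 FPKM against 6.89 FPKM in the paired-end columns. AROM, which does not carry the CERM transgene, was close to CERM, with Esr1 at 8.41 FPKM in its single-end and 7.87 FPKM in its paired-end column, so these values do not show the transgene. Mouse Cyp19a1 stood at 0.06 FPKM at most in AROM, which does not measure a human transgene. Brca1 stood at 3.28 FPKM in BRCA against 1.13 FPKM in WT in the single-end columns; the whole-gene value does not measure the deleted part. Library depth is unknown, since FPKM values do not hold it. Both WT columns consist largely of values with the long repeating decimals of a mean of 3 numbers (66.7% of their single-end and 66.5% of their paired-end values above 0), which the library counts of the labels do not give; the sources used here do not say how they were combined. Comparisons among AROM, CERM and BRCA do not use those columns.

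AROM glands had the highest level of nearly every common subunit. AROM was the highest of the 4 genotypes for 71 of 73 subunits in the single-end columns and for 72 of 73 in the paired-end columns, whereas it was highest for 27.3% and 23.3% of all 12188 genes. The exceptions were Cox6a1 and Ndufc2 in the single-end columns, where WT was highest, and Ndufs5 in the paired-end columns, where CERM was highest. BRCA was the lowest for 68 of 73 subunits in the single-end columns and for 53 of 73 in the paired-end columns, against 28.4% and 21.9% of all genes. CERM was lowest for 3 of 73 subunits in the single-end columns and for 20 of 73 in the paired-end columns, against 23.4% and 13.4% of all genes. The median common subunit stood at 376 FPKM in AROM, 265 FPKM in CERM, 231 FPKM in BRCA and 271 FPKM in WT in the single-end columns, and at 411, 221, 220 and 285 FPKM in the same order in the paired-end columns.

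Differences are given as log2 of the ratio of (FPKM + 1), and a gene is counted as higher or lower when this ratio is at least 1.5-fold. In AROM against WT the median of the 73 subunits was 0.41 (1.33-fold) in the single-end columns and 0.50 (1.41-fold) in the paired-end columns, where the medians of all genes were 0.00 and -0.09. In the single-end columns 12 of 73 were at least 1.5-fold higher, where 5.99% of all genes were, and in the paired-end columns 28 of 73 were, where 7.16% of all genes were. These counts depended on the scaling: quantile normalization left 2 and 6 subunits past the fold, with medians of 0.28 and 0.21, and median-ratio scaling gave 12 and 42. Under quantile normalization the medians of all genes were -0.01 and -0.02. The shares of all genes printed here belong to the unscaled values. None is given under either scaling, so the rescaled counts cannot be set against a share. Both layouts placed 6 of 73 past that fold, where 1.54% of all genes were: Ndufs5, Ndufa2, Atp5e, Ndufb10, Sdhb and Atp5k. No subunit was 1.5-fold lower in AROM than in WT, where 5.24% of all genes were in the single-end columns, 8.81% in the paired-end columns and 4.25% in both. Most of the common subunits thus stood above WT by less than the fold used for counting.

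In BRCA against WT the shift had the opposite sign. The median was -0.31 (0.81-fold) in the single-end columns and -0.42 (0.74-fold) in the paired-end columns, with all genes at 0.04 and 0.11. Under quantile normalization the medians were -0.10 and -0.29. Of 73 subunits, 70 were below WT in the single-end columns and 73 in the paired-end columns, where 5516 of 12127 and 4607 of 12074 genes were. In the single-end columns 0 of 73 were at least 1.5-fold lower, where 5.58% of all genes were, and in the paired-end columns 8 of 73 were, where 4.28% of all genes were. Median-ratio scaling turned the paired-end count to 32 and quantile normalization to 3, and no share of all genes is given under either scaling. The 8 were Uqcr11, Uqcr10, Ndufb2, Ndufc1, Ndufs7, Ndufs5, Ndufa5 and Ndufb7. The difference was spread over nearly all subunits and small in each: both layouts placed 0 of 73 past 1.5-fold, where 3.15% of all genes were. No subunit was 1.5-fold higher in BRCA, where 10.2% of all genes were in the single-end columns, 13.5% in the paired-end columns and 8.81% in both.

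CERM glands lay near WT in the single-end columns and below it in the paired-end columns. The median was -0.06 in the single-end columns (-0.0142 under median-ratio scaling) and -0.30 in the paired-end columns. In the single-end columns 50 of 73 subunits were below WT, where 6882 of 12131 genes were. In the paired-end columns 68 of 73 were, where 5269 of 12074 genes were. No subunit was 1.5-fold lower in the single-end columns, where 3.65% of all genes were, and 7 of 73 were in the paired-end columns, where 3.64% of all genes were. The 7 were Uqcrq, Cox6a1, Uqcr11, Ndufab1, Uqcr10, Cox5b and Ndufs7. Ndufs5 was the 1 subunit at least 1.5-fold higher, in the paired-end columns, where 9.32% of all genes were higher. None was past the fold in both layouts, where 1.67% of all genes were lower and 2.90% higher. In the single-end columns none was 1.5-fold higher, where 7.16% of all genes were.

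**Figure D1:**
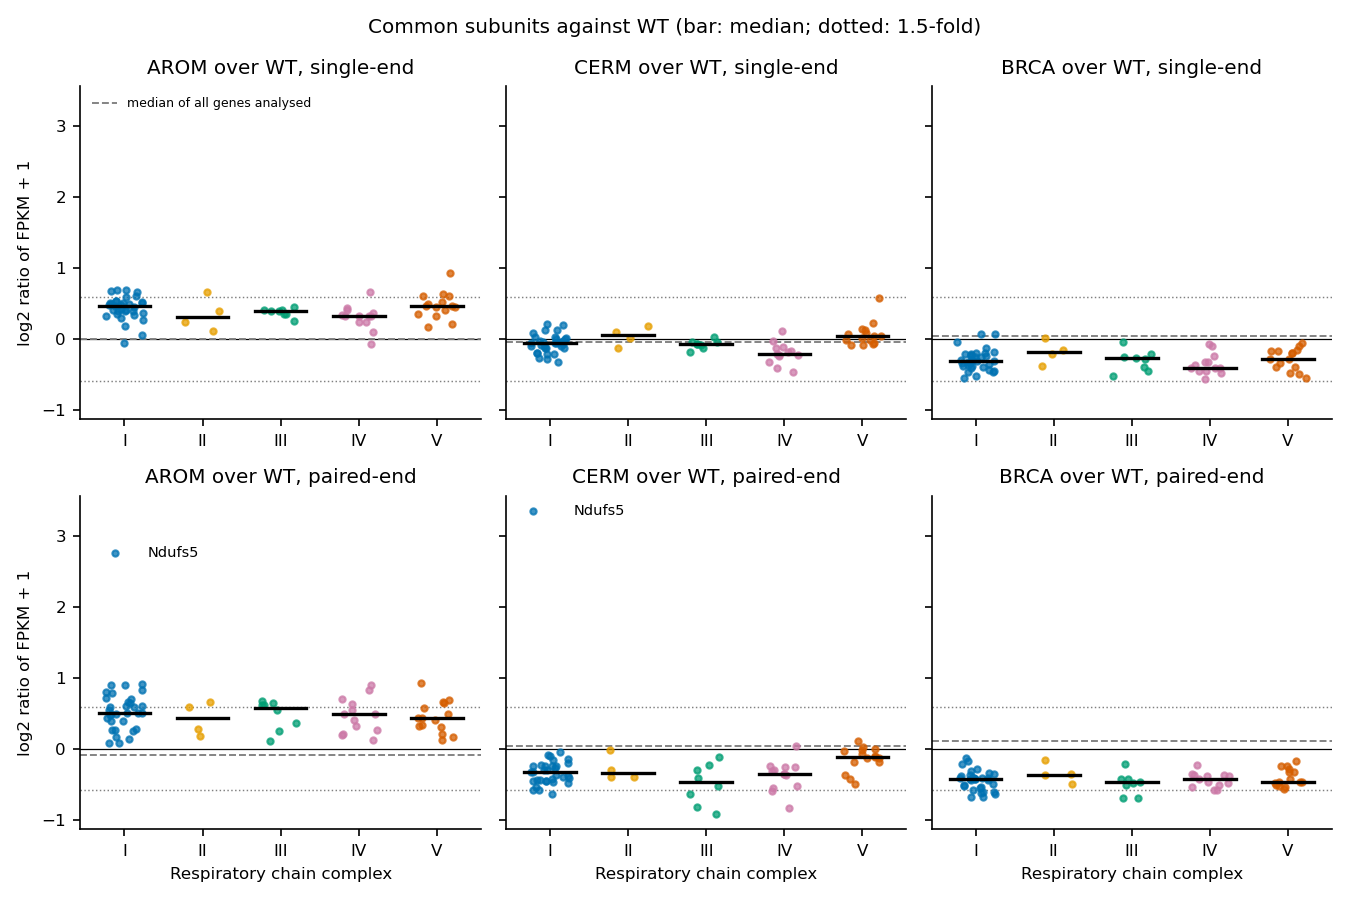
Log2 ratio of (FPKM + 1) over WT for each common subunit, by respiratory chain complex, in the single-end (top) and paired-end (bottom) columns, with AROM, CERM and BRCA from left to right. Each point is 1 subunit, black bars are medians, the dashed line is the median of all genes analysed and dotted lines mark 1.5-fold. AROM points lie above 0 for 71 and 73 of 73 subunits, where 5989 of 12112 and 4915 of 12060 genes do. BRCA points lie below 0 for 70 and 73 of 73, where 5516 of 12127 and 4607 of 12074 genes do. Ndufs5 stands apart in 2 panels.

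The genotypes also differed without use of the WT columns. AROM was above BRCA for 73 of 73 subunits in both layouts, where 5744 of 12116 (single-end) and 4390 of 12082 (paired-end) genes were. The medians were 0.72 (1.65-fold) in the single-end columns and 0.92 (1.90-fold) in the paired-end columns, against -0.04 and -0.23 for all genes. At least 1.5-fold higher in AROM were 55 of 73 in the single-end columns, where 11.0% of all genes were, and 64 of 73 in the paired-end columns, where 11.5% of all genes were. Quantile normalization left 13 and 29 past the fold, with medians of 0.36 and 0.51. Without it, both layouts placed 52 of 73 past that fold, where 7.11% of all genes were. None was 1.5-fold lower in AROM than in BRCA, where 14.8% of all genes were in the single-end columns, 27.7% in the paired-end columns and 14.0% in both. CERM was below AROM for 73 of 73 in the single-end columns and 72 of 73 in the paired-end columns, with medians of -0.49 and -0.79. Of all genes, 6485 of 12121 and 4068 of 12087 were below AROM in CERM. At least 1.5-fold lower in CERM were 14 of 73 (2.93% of all genes) and 53 of 73 (7.32% of all genes) in the single-end and paired-end columns, and 12 of 73 in both, where 1.32% of all genes were. The single-end 14 became 2 under quantile normalization, with a median of -0.32, and 7 under median-ratio scaling, and the paired-end 53 became 36 and 66. For these rescaled counts and those of AROM over BRCA, no share of all genes is given. Higher in CERM than in AROM by that fold were 0 of 73 in the single-end columns, 1 (Ndufs5) in the paired-end columns and 0 in both, where 4.40%, 14.1% and 3.53% of all genes were. CERM against BRCA had medians of 0.24 in the single-end columns and 0.11 in the paired-end columns, and quantile normalization changed them to 0.0489 and -0.0455, the second with the opposite sign. In that comparison 2 of 73 subunits were 1.5-fold higher in each layout, where 7.18% and 7.35% of all genes were, and Atp5g1 was the 1 subunit past it in both, where 4.24% of all genes were. None was 1.5-fold lower in CERM than in BRCA, where 9.77%, 9.80% and 6.64% of all genes were in the single-end columns, the paired-end columns and both.

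The paired-end AROM column stood apart in its total over all loci, 1.2e+08 FPKM with 1 locus at 3.58e+07 FPKM. The other paired-end columns had totals from 4.3e+06 to 6.2e+06 FPKM. What this does to the subunit values was not tested. The all-gene median itself also moved in the paired-end columns. Relative to it, the paired-end subunit medians were 0.58 in AROM against WT, -0.34 in CERM against WT and -0.54 in BRCA against WT. They were -0.97 in CERM against AROM and 1.15 in AROM against BRCA. Abundant genes as a class shifted too. Among genes with a mean of at least 100 FPKM that are not members, the median over WT was 0.07 and 0.23 in AROM, -0.13 and 0.10 in CERM and -0.19 and -0.16 in BRCA (single-end, then paired-end columns; 565 and 564 genes). For those with a coding length under 600 bases, as 54 of the 73 subunits have, it was 0.06 and 0.21 in AROM, -0.21 and 0.06 in CERM and -0.28 and -0.21 in BRCA (218 genes). The BRCA medians of the subunits, -0.31 and -0.42, thus stood beside -0.28 and -0.21 in other short abundant genes, close in the single-end columns and further apart in the paired-end columns. Only members were left out of that set, so it can hold cytosolic ribosomal protein genes, and their share in it was not counted. The AROM medians of 0.41 and 0.50 lay further from those genes in both layouts.

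Cell type markers also differed between the columns, but the lists did not move alike. The summed level of 12 white adipocyte markers, of 12 looked for, was 25850 FPKM in AROM, 15128 FPKM in CERM, 11315 FPKM in BRCA and 17367 FPKM in WT in the single-end columns, and 31958, 19289, 10587 and 13480 FPKM in the same order in the paired-end columns. AROM was highest and BRCA lowest in both sums. Fabp4, a fatty acid carrier of adipocytes, made up most of each, and its 12790 FPKM in CERM against 8021 FPKM in WT accounts for most of the paired-end gap between those sums. Marker by marker, the median over WT was 0.29 and 1.05 in AROM, -0.10 and 0.03 in CERM and -0.62 and -0.42 in BRCA, with 7 of 12 above and 5 below WT in paired-end CERM. The 11 luminal epithelial markers found, of 12, summed to 512 FPKM in AROM, 685 FPKM in CERM, 1051 FPKM in BRCA and 1020 FPKM in WT in the single-end columns, and to 302, 645, 1044 and 823 FPKM in the paired-end columns, lowest in AROM. The 9 leukocyte markers found, of 11, summed to 840, 1171, 1658 and 1111 FPKM in the single-end columns and to 643, 1711, 1571 and 812 FPKM in the paired-end columns, in the same order. Cd74 and Lyz2 made up most of these sums, and the paired-end CERM sum exceeds that of BRCA through Lyz2, at 919 FPKM in CERM against 482 FPKM in BRCA, while 6 of 9 markers were lower in CERM. The median leukocyte marker over WT was -0.11 and 0.21 in AROM, 0.30 and 1.10 in CERM and 1.29 and 1.65 in BRCA. The 7 fibroblast markers summed to 1409, 1085, 1463 and 990 FPKM in the single-end columns, in the order AROM, CERM, BRCA and WT. In the paired-end columns they summed to 1151, 1738, 1423 and 660 FPKM. The 5 basal epithelial markers found, of 8, summed to 297, 331, 293 and 351 FPKM in the single-end columns. Their paired-end sums were 183, 363, 288 and 271 FPKM. None of the markers found was at 0 in any column. The part of these cell types in the subunit differences was not tested, and in whole glands a change in the cells present and a change in RNA per cell cannot be told apart.

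Complex I, where electrons from NADH enter the chain, had the largest number of members. Its 33 subunits had medians over WT of 0.46 and 0.51 in AROM, -0.06 and -0.33 in CERM and -0.31 and -0.42 in BRCA (single-end, then paired-end columns). The most abundant were Ndufb9, Ndufb8 and Ndufa3, all accessory subunits. Ndufb9 stood at 711 FPKM in AROM, 501 FPKM in CERM, 422 FPKM in BRCA and 520 FPKM in WT in the single-end columns, and at 850, 429, 386 and 519 FPKM in the paired-end columns. Ndufb8 stood at 665, 444, 376 and 483 FPKM in the single-end columns and at 964, 381, 355 and 511 FPKM in the paired-end columns, in the same order. Ndufa3 stood at 575, 394, 318 and 413 FPKM in the single-end columns and at 641, 335, 253 and 344 FPKM in the paired-end columns. In all 3, AROM was highest and BRCA lowest in both layouts.

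Ndufa2, a small accessory subunit of the peripheral arm, was among the subunits furthest above WT in AROM. It stood at 389 FPKM in AROM, 243 FPKM in CERM, 176 FPKM in BRCA and 241 FPKM in WT in the single-end columns, and at 448, 195, 165 and 239 FPKM in the paired-end columns, which is 0.69 and 0.90 for AROM against WT and 1.14 and 1.44 for AROM against BRCA. Ndufb10, a membrane arm subunit, stood at 357, 253, 190 and 220 FPKM in the single-end columns and at 407, 220, 180 and 235 FPKM in the paired-end columns. Ndufs7, a core subunit that holds an iron-sulfur cluster, and Ndufc1, a small membrane subunit, were also among the 10 furthest above BRCA in AROM. Ndufs7 was 1.08 and 1.19 above BRCA, and Ndufc1 was 1.00 and 1.27 above it. Ndufb6, Ndufb7, Ndufb2, Ndufab1 and Ndufs6 joined Ndufa2 and Ndufc1 among the 12 subunits that CERM had at least 1.5-fold below AROM in both layouts, with differences between -0.59 and -1.29.

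The 6 core subunits of complex I among the members did not move alike; they were set apart after their values were seen. Ndufs1, the largest iron-sulfur subunit, stood at 109 FPKM in AROM, 92.6 FPKM in CERM, 95.3 FPKM in BRCA and 90.8 FPKM in WT in the single-end columns, and at 104, 75.2, 89.6 and 98.2 FPKM in the paired-end columns, 0.07 and -0.13 for BRCA against WT. Ndufv1, which holds the site that oxidizes NADH, was -0.04 and -0.17 in BRCA against WT and 0.40 and 0.64 in AROM against WT. Ndufs7 was -0.41 and -0.64 in BRCA against WT, with Ndufs3, Ndufs8 and Ndufv2 between -0.20 and -0.44. The accessory genes Ndufa7, which shares a locus with Kank3 in the table, and Ndufa13, which has 2 loci, were left out. The joint Kank3 and Ndufa7 locus stood at 310, 237, 207 and 260 FPKM and the main Ndufa13 locus at 166, 115, 86.4 and 106 FPKM in AROM, CERM, BRCA and WT in the single-end columns.

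Ndufs5, an accessory subunit of complex I, had the largest difference between layouts of the 73 subunits in both AROM and CERM. It stood between 4.92 and 8.27 FPKM in the 4 single-end columns, far below the complex I median, which was 210 FPKM in WT. In the paired-end columns it stood at 59.7 FPKM in AROM and 90.6 FPKM in CERM, against 4.85 FPKM in BRCA and 7.98 FPKM in WT. Its paired-end ratios, 2.76 in AROM and 3.35 in CERM against WT, therefore have no counterpart in the single-end columns of the same genotypes, where the ratios were 0.59 and -0.06. The sources used here do not say how reads with several matches were counted, and their part in the Ndufs5 values was not tested. Leaving Ndufs5 out changed no median of the common subunits by more than the tolerance of 0.1. Without it, 5 of 72 subunits were 1.5-fold above WT in AROM in both layouts, where 1.54% of all genes were. In paired-end BRCA 7 of 72 were 1.5-fold below WT, where 4.28% of all genes were.

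Complex II oxidizes succinate and is shared with the TCA cycle. Its 4 subunits had medians over WT of 0.31 and 0.43 in AROM, 0.06 and -0.34 in CERM and -0.18 and -0.36 in BRCA. Sdhb, the iron-sulfur subunit, stood at 533 FPKM in AROM, 362 FPKM in CERM, 303 FPKM in BRCA and 336 FPKM in WT in the single-end columns, and at 587, 284, 287 and 373 FPKM in the paired-end columns, 0.66 and 0.65 for AROM against WT. Sdha, the flavoprotein subunit that binds succinate, stood closer to WT in AROM, at 0.12 and 0.17, while in paired-end CERM it was as far below WT as Sdhb, -0.40 against -0.39. It stood at 283, 265, 264 and 261 FPKM in the single-end columns and at 322, 216, 255 and 285 FPKM in the paired-end columns. Sdhd, a membrane anchor, stood at 235, 183, 153 and 199.5 FPKM in the single-end columns and at 251, 169, 146 and 207 FPKM in the paired-end columns, in the order AROM, CERM, BRCA and WT.

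Complex III passes electrons from ubiquinol to cytochrome c. Its 8 subunits had medians over WT of 0.40 and 0.58 in AROM, -0.07 and -0.47 in CERM and -0.27 and -0.47 in BRCA, so it had the lowest paired-end CERM median of the 5 complexes. Uqcrq, a ubiquinone-binding accessory subunit, stood at 299 FPKM in CERM against 565 FPKM in WT in the paired-end columns (-0.92), and at 598 FPKM in CERM against 656 FPKM in WT in the single-end columns (-0.13). Uqcr11, a small accessory subunit, stood at 367 FPKM in CERM against 651 FPKM in WT in the paired-end columns (-0.82) and at 558 against 636 FPKM in the single-end columns (-0.19). The layouts thus gave different sizes for the same genotype. Against AROM, where Uqcrq stood at 899 and 898 FPKM and Uqcr11 at 839 and 997 FPKM, both were at least 1.5-fold lower in CERM in both layouts. Uqcrh, the hinge protein, was the most abundant, at 917, 656, 578 and 694 FPKM in AROM, CERM, BRCA and WT in the single-end columns and at 1035, 609, 495 and 661 FPKM in the paired-end columns. Uqcr10 was 0.86 and 1.31 above BRCA in AROM, and Uqcrc2, a core protein, was 0.30 and 0.46 above it.

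Complex IV reduces oxygen. Its 13 common subunits had medians over WT of 0.32 and 0.49 in AROM, -0.22 and -0.35 in CERM and -0.41 and -0.42 in BRCA. Cox4i1, the common form of subunit 4, stood at 1304 FPKM in AROM, 935 FPKM in CERM, 789 FPKM in BRCA and 1046 FPKM in WT in the single-end columns, and at 1931, 874, 737 and 1032 FPKM in the paired-end columns. Its AROM ratio over WT was 0.32 in the single-end and 0.90 in the paired-end columns. Ndufa4, named as a complex I gene and now placed in complex IV, stood at 1391, 932, 917 and 1084 FPKM in the single-end columns and at 1451, 857, 788 and 1028 FPKM in the paired-end columns, in the same order. Cox6b1, which links the monomers of the dimer, stood at 1248, 903, 845 and 1058 FPKM in the single-end columns and at 1457, 807, 746 and 1001 FPKM in the paired-end columns. In these genes AROM was highest and BRCA lowest in both layouts. Cox6c and Cox7a2 were among the 12 subunits that CERM had at least 1.5-fold below AROM in both layouts, with Cox6c at -0.65 and -0.77 and Cox7a2 at -0.65 and -0.89.

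The tissue-restricted forms of complex IV that were counted among the common subunits were low. Cox4i2, the lung form of subunit 4, stood between 3.44 and 6.74 FPKM in the single-end columns and Cox6b2, the testis form of subunit 6b, between 3.78 and 6.96 FPKM. The other testis forms did not pass the filter: Cox8c was listed at 0 in all 8 columns and Cox7b2 in 7 of them.

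Complex V makes ATP. Its 15 subunits had medians over WT of 0.47 and 0.44 in AROM, 0.04 and -0.12 in CERM and -0.28 and -0.46 in BRCA, so in CERM it stayed nearest to WT of the 5 complexes in the paired-end columns. Atp5k, the small membrane subunit e, was the most abundant of the 73 common subunits on average. It stood at 2059 FPKM in AROM, 1418 FPKM in CERM, 1104 FPKM in BRCA and 1349 FPKM in WT in the single-end columns, and at 1740, 1026, 833 and 1114 FPKM in the paired-end columns. Atp5b, the catalytic beta subunit, stood at 1518, 1254, 1093 and 1214 FPKM in the single-end columns and at 1692, 1102, 1056 and 1247 FPKM in the paired-end columns, in the same order, a narrower spread. Atp5l, subunit g of the membrane part, had log2 ratios over WT of 0.45 and 0.57 in AROM and -0.39 and -0.46 in BRCA.

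Atp5e, the epsilon subunit of the central stalk, was, by the mean of both layouts, the furthest above BRCA in AROM of the 52 subunits past 1.5-fold in both. It stood at 1076 FPKM in AROM, 661 FPKM in CERM, 491 FPKM in BRCA and 691 FPKM in WT in the single-end columns, and at 1275, 500, 451 and 670 FPKM in the paired-end columns, 1.13 and 1.498 for AROM against BRCA. It was also the subunit of complex V among the 12 that CERM had 1.5-fold or more below AROM in both layouts, at -0.70 and -1.35. The genes Atp5g1, Atp5g2 and Atp5g3 encode the same mature ring subunit c. Atp5g1 stood at 262, 206, 122 and 137 FPKM in the single-end columns and at 208, 181, 120 and 167 FPKM in the paired-end columns, in the order AROM, CERM, BRCA and WT. In CERM it was 0.75 and 0.59 above BRCA, the only common subunit past 1.5-fold in both layouts there. Atp5g3 was 0.50 and 0.51 above BRCA in CERM, and Atp5g2 0.53 and 0.40. In AROM, Atp5g3 was 0.95 and 1.23 above BRCA. The 3 genes have closely related coding sequences, and the sources used here do not say how reads that match several of them were counted.

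**Figure D2:**
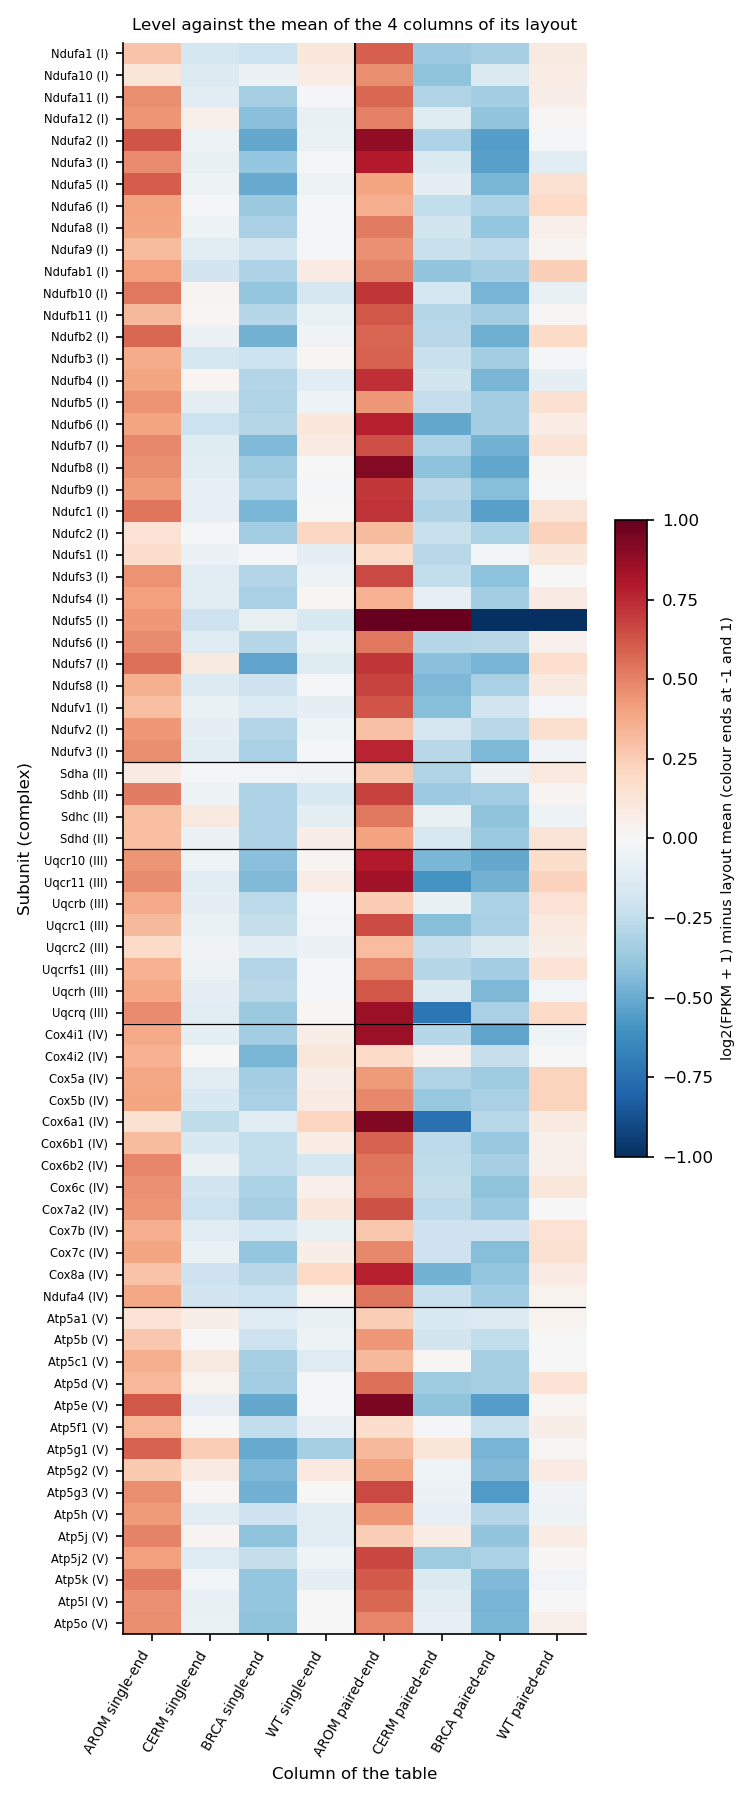
Heat map of log2(FPKM + 1) of the 73 common subunits (rows, grouped by complex), each minus the mean of the 4 columns of the same read layout; columns run AROM, CERM, BRCA and WT for single-end and then for paired-end. The AROM columns are the highest for 71 and 72 of 73 subunits, and Ndufs5 is the row in which the paired-end AROM and CERM columns stand apart.

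The 9 genes that share the prefixes but not the role stood closer to WT in AROM than the common subunits did, but not in every genotype. Their medians over WT were 0.26 and 0.20 in AROM, -0.07 and -0.18 in CERM and -0.29 and -0.23 in BRCA. No gene of the 9 was 1.5-fold higher in AROM than in WT, where 5.99% and 7.16% of all genes were. Ndufa4l2, a hypoxia-induced relative of Ndufa4, and Ndufaf3, a complex I assembly factor, were the 2 of 9 at least 1.5-fold lower in BRCA than in WT in both layouts, where 3.15% of all genes and 0 of 73 common subunits were. Ndufa4l2 stood at 5.33 FPKM in BRCA against 10.3 FPKM in WT in the single-end columns (-0.84) and at 5.39 against 10.4 FPKM in the paired-end columns (-0.84). Ndufaf3 stood at 11.97 against 18.9 FPKM in the single-end columns (-0.62) and at 11.3 against 18.1 FPKM in the paired-end columns (-0.64). Ndufaf2, another assembly factor, was the 1 of 9 that CERM had 1.5-fold or more below AROM in both layouts, where 1.32% of all genes were, and Cox7a2l, which helps to join complexes III and IV, stayed between -0.29 and 0.10 against WT in every genotype.

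The 3 tissue isoforms did not follow the common subunits as a group. Cox6a2, the heart and skeletal muscle form of subunit 6a, stood at 558 FPKM in AROM, 718 FPKM in CERM, 189 FPKM in BRCA and 249.7 FPKM in WT in the single-end columns, and at 381, 472, 184 and 419 FPKM in the paired-end columns. CERM was highest and BRCA lowest in both layouts, and AROM lay above WT in the single-end columns and close to WT in the paired-end columns. Its widely expressed partner Cox6a1 had another order, at 863, 654, 722 and 903 FPKM in the single-end columns and 1572, 493, 684 and 882 FPKM in the paired-end columns. Cox6a2 made up 52.3% and 48.9% of the pair in CERM against 20.7% and 21.2% in BRCA, and 21.7% and 32.2% in WT.

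Skeletal muscle RNA also differed between the columns, in part in step with Cox6a2. The 12 skeletal muscle markers found, of 14, summed to 42690 FPKM in AROM, 45370 FPKM in CERM, 19076 FPKM in BRCA and 14851 FPKM in WT in the single-end columns, and to 27631, 34504, 18476 and 24231 FPKM in the paired-end columns. In the paired-end columns the order of the 4 genotypes differed from that of Cox6a2 in the places of AROM and WT, and in the single-end columns in those of BRCA and WT. In single-end BRCA all 12 markers were above WT (median 0.35) with Cox6a2 at -0.40, and in paired-end AROM 11 of 12 were above WT with Cox6a2 at -0.13. Marker by marker, CERM and AROM were close in the single-end columns, with a median of 0.02 for CERM over AROM and 6 of 12 markers on either side. No marker was at 0. In CERM against BRCA, Cox6a2 was 1.92 and 1.35, the largest value of any member in that comparison apart from Ndufs5 in the paired-end columns. The part of muscle in these values was not tested.

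Cox7a1 and Cox8b, which are abundant in brown fat and in striated muscle, were both at least 1.5-fold higher in AROM than in WT in both layouts. Cox7a1 stood at 705 FPKM in AROM, 462 FPKM in CERM, 394 FPKM in BRCA and 407 FPKM in WT in the single-end columns, and at 785, 306, 334 and 442 FPKM in the paired-end columns, 0.79 and 0.83 for AROM against WT. Cox8b stood at 1467, 945, 901 and 817 FPKM in the single-end columns and at 1930, 633, 791 and 969 FPKM in the paired-end columns, in the same order, 0.84 and 0.99 for AROM against WT. Both were past 1.5-fold lower in CERM against AROM, with Cox7a1 at -0.61 and -1.36 and Cox8b at -0.63 and -1.61. Each was more abundant than its common partner in all 8 columns: Cox7a1 made up 62.6% to 71.3% of its sum with Cox7a2, and Cox8b 50.9% to 63.6% of its sum with Cox8a.

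The 7 brown adipocyte markers found, of 10, summed to 461 FPKM in AROM, 403 FPKM in CERM, 546 FPKM in BRCA and 376 FPKM in WT in the single-end columns, and to 832, 251, 533 and 461 FPKM in the paired-end columns. Most of each sum is Ucp1, the uncoupling protein that defines brown fat, which stood at 421, 349, 485 and 341 FPKM in the single-end columns and at 739, 214, 473 and 421 FPKM in the paired-end columns. Over the 7 markers the median over WT was -0.0043 and 0.68 in AROM, 0.09 and -0.33 in CERM and 0.89 and 0.64 in BRCA. The paired-end orders of Ucp1 and of Cox8b agree in AROM as highest and CERM as lowest, but in the single-end columns Ucp1 was highest in BRCA. The part of brown fat in these values was not tested.

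**Figure D3:**
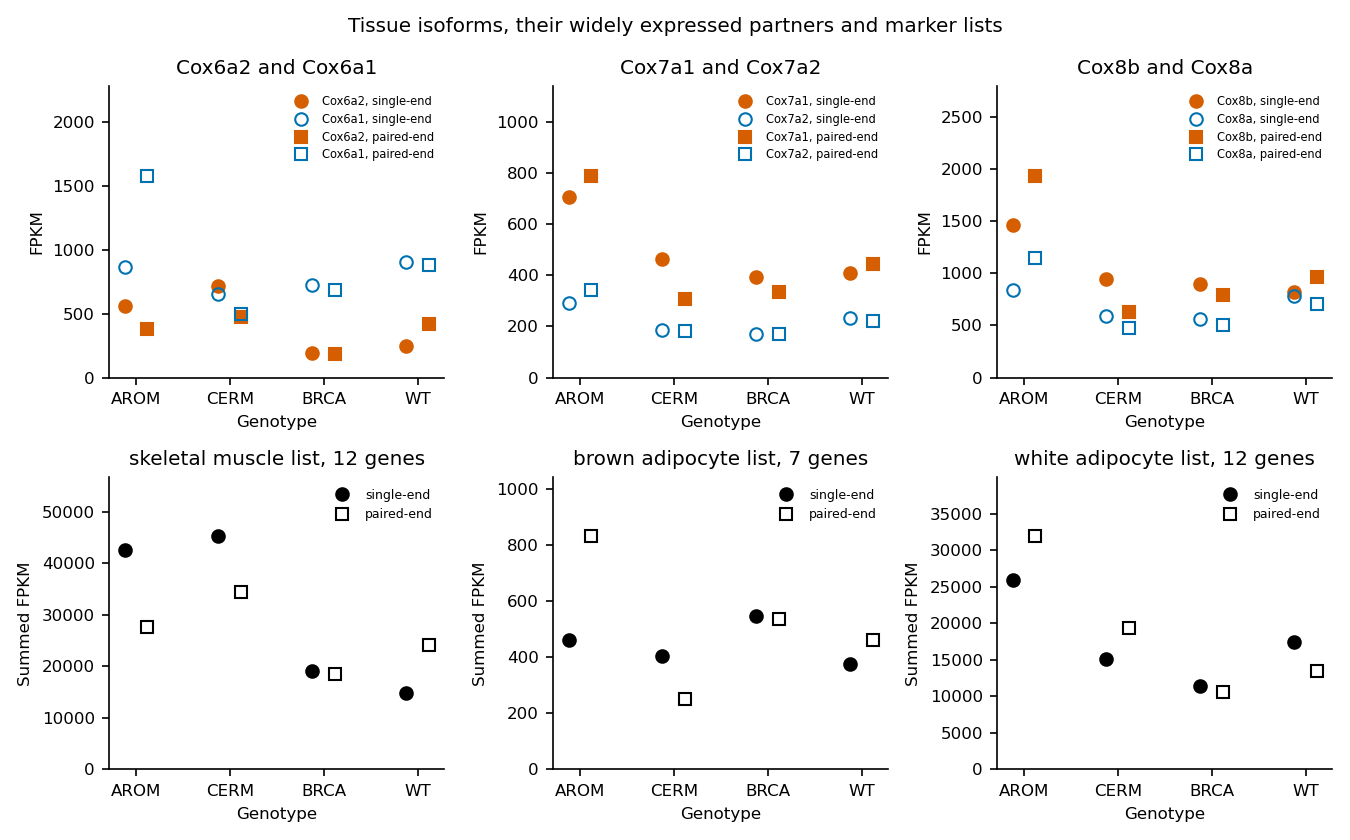
Top, FPKM of each tissue isoform (filled) and its widely expressed partner (open) in AROM, CERM, BRCA and WT, with circles for the single-end and squares for the paired-end columns; bottom, summed FPKM of the skeletal muscle, brown adipocyte and white adipocyte marker lists. Cox6a2 and the muscle sum are highest in CERM in both layouts, and Cox7a1 and Cox8b are highest in AROM. Single-end muscle markers were split between CERM and AROM, with 6 higher and 6 lower in CERM.

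Promoter sequence was read for the members because the common subunits moved largely together. RefSeq windows (GRCm38.p6, 250 bases up to the annotated start) were found for 71 of the 85 members, 62 of them common subunits. Letters of the site bound by NRF1, a factor known for its role at respiratory chain genes, are printed in capitals in Ndufb4, which holds 3 matches, and in Atp5k, which holds 1. Ndufb4 and Atp5k were picked because they hold these letters, which 50 of the 62 common subunits do not. Cox7a1 and Cox8b hold none and are shown beside them as the isoforms with a window. Cox6a2 had no window. Like most common subunits, Cox7a1 and Cox8b were higher in AROM than in WT and in BRCA. In paired-end CERM over WT, Ndufb4 was at -0.09 and Atp5k at -0.12, with Cox7a1 at -0.53 and Cox8b at -0.61. The single-end values were 0.13, 0.07, 0.18 and 0.21 in the same order. Whether the letters go with level in these 4 picked genes was not tested. The windows are, 5′ to 3′ on the gene's strand, Ndufb4 at chr16:37654369-37654618 (minus strand), Atp5k at chr5:108434400-108434649 (minus strand), Cox7a1 at chr7:30183921-30184170 (plus strand) and Cox8b at chr7:140900447-140900696 (minus strand).

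Ndufb4: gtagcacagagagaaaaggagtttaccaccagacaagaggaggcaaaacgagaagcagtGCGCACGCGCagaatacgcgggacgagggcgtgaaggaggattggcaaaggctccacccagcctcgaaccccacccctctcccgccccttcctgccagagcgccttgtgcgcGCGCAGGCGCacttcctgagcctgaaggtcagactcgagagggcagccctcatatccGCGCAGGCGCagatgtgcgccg
Atp5k: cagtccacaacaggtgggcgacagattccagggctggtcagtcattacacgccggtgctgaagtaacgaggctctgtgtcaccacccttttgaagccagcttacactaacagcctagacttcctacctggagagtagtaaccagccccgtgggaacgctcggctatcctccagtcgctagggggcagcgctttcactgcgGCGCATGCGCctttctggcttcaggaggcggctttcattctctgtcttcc
Cox7a1: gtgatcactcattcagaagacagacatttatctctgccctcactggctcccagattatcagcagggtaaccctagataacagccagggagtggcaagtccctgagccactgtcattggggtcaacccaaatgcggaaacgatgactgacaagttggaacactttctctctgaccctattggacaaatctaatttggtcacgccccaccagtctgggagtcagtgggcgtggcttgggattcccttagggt
Cox8b: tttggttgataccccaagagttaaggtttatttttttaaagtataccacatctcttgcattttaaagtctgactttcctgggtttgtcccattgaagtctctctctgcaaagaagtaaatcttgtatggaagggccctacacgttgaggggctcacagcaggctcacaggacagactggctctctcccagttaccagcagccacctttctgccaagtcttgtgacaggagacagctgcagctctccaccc

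The letters searched, on both strands, were GCGC, any base and TGCGC for NRF1, CCGGAAG for ETS factors such as GABP, TCAAGGTCA for oestrogen-related receptors and CTA and TAG set apart by any 4 bases for MEF2; no motif contains another. The NRF1 letters occurred in 12 of the 62 common subunits with a window (19.4%) and in 8.16% of the 9491 analysed genes with one. By complex they occurred in 6 of 30 for complex I, 2 of 3 for complex II, 0 of 5 for complex III, 1 of 10 for complex IV and 3 of 14 for complex V. The ETS letters occurred in 11 of 62 (17.7%) against 13.2% of all genes, the oestrogen-related receptor letters in 1 of 62 against 0.20%, and the MEF2 letters in 1 of 62 against 2.78%. The 12 common subunits with the NRF1 letters and the 50 without had medians over WT of 0.50 with and 0.41 without in single-end AROM, 0.49 and 0.51 in paired-end AROM, -0.29 and -0.32 in single-end BRCA and -0.41 and -0.43 in paired-end BRCA. In CERM they were -0.02 with and -0.07 without in the single-end columns and -0.23 and -0.37 in the paired-end columns, and paired-end CERM against AROM had -0.64 with and -0.86 without. A match is a description of these letters and not a bound site.

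The mitochondrial ribosome, the assembly factors and the electron carriers shifted in the same direction as the subunits in AROM and BRCA, with medians nearer to 0. In single-end CERM the mitochondrial ribosome lay further below WT than the subunits did. The 67 mitochondrial ribosomal proteins, which translate the subunits encoded in mitochondrial DNA, had medians over WT of 0.22 and 0.26 in AROM, -0.15 and -0.14 in CERM and -0.25 and -0.25 in BRCA. In both layouts 60 of 67 were above WT in AROM, where 3762 of 12039 genes were, and 56 of 67 below WT in BRCA, where 4121 of 12059 were. Past 1.5-fold in both layouts were 0 and 2, where 1.54% and 3.15% of all genes were. The 24 assembly factors found, of 29, had medians of 0.19 and 0.23 in AROM, -0.03 and -0.13 in CERM and -0.14 and -0.23 in BRCA. Cox17, a copper chaperone for complex IV, was 0.37 and 0.58 above WT in AROM. The 13 genes of electron carriers and entry found, of 15, had medians of 0.34 and 0.30 in AROM, -0.05 and -0.25 in CERM and -0.13 and -0.16 in BRCA. Cytochrome c (Cycs) was at 0.36 and 0.33 in AROM, and Coq7, an enzyme of ubiquinone synthesis, at -0.81 and -0.89 in BRCA.

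Pathways that feed the chain moved less evenly. The 13 TCA cycle genes had medians of 0.26 and 0.28 in AROM, 0.02 and -0.35 in CERM and 0.00 and -0.17 in BRCA. None was 1.5-fold different from WT in any genotype or layout, where 3.64% to 13.5% of all genes were in each direction. Mdh2, malate dehydrogenase, was highest among them in AROM, at 0.49 and 0.54. The 11 fatty acid oxidation genes found, of 12, had medians of 0.13 and 0.62 in AROM, -0.11 and -0.24 in CERM and 0.08 and -0.06 in BRCA. The 12 glycolysis genes found, of 15, had medians of 0.43 and 0.55 in AROM, 0.42 and 0.08 in CERM and -0.06 and -0.18 in BRCA, and the 9 carrier and inhibitor genes found, of 10, had 0.31 and 0.12 in AROM and -0.15 and -0.29 in BRCA. Among the carriers Slc25a4, the ADP/ATP carrier of heart and muscle, stood at 1289 FPKM in AROM against 558 FPKM in WT in the single-end columns and at 847 against 736 FPKM in the paired-end columns.

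The cytosolic ribosome and the proteasome served as a comparison. The 79 cytosolic ribosomal proteins had medians of -0.07 and -0.04 in AROM, -0.26 and 0.05 in CERM and -0.47 and -0.27 in BRCA. Their single-end difference in BRCA was thus larger than that of the common subunits, and their AROM medians had the opposite sign. In single-end BRCA 19 of 79 were at least 1.5-fold lower than in WT, where 5.58% of all genes were. The 37 genes with proteasome prefixes found, of 39, had medians of 0.06 and 0.10 in AROM, -0.13 and 0.07 in CERM and -0.04 and 0.02 in BRCA. They include Psmc3ip, which shares the prefix but is not a proteasome subunit, at -2.80 and -2.66 in CERM. The 12 regulators of mitochondrial biogenesis found, of 15, had medians of 0.02 and -0.19 in AROM and 0.15 and 0.05 in BRCA. Ppargc1a, the coactivator PGC-1 alpha, stood at 6.24 FPKM in BRCA against 2.90 FPKM in WT in the single-end columns and at 5.96 against 3.47 FPKM in the paired-end columns. In AROM, where the common subunits were highest, it stood at 3.47 FPKM in the single-end and 3.22 FPKM in the paired-end column, on either side of WT.

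**Figure D4:**
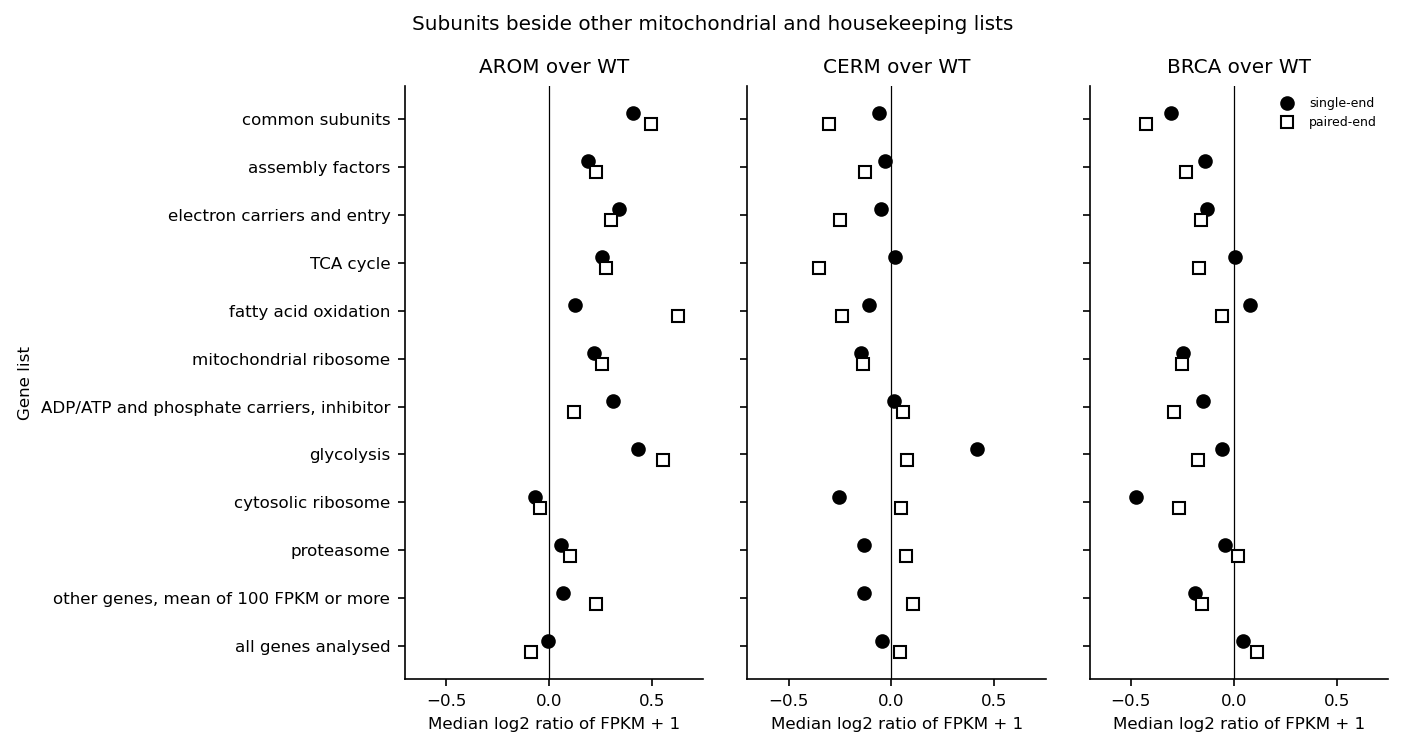
Median log2 ratio of (FPKM + 1) over WT of each gene list in AROM, CERM and BRCA, with filled circles for the single-end and open squares for the paired-end columns. The common subunits have medians of 0.41 and 0.50 in AROM and -0.31 and -0.42 in BRCA, while the cytosolic ribosome is below WT in BRCA and near 0 in AROM.

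Shorter subunits lay further below WT in BRCA, and further above BRCA in AROM, than longer ones, and the relation to length differed between comparisons and layouts. Across the 73 common subunits, the Spearman correlation of the BRCA ratio over WT with the longest coding length was 0.48 in the single-end and 0.45 in the paired-end columns, and that of AROM over BRCA was -0.34 and -0.42. It was 0.49 and 0.24 for CERM over AROM, 0.40 and 0.13 for CERM over WT, -0.14 and -0.26 for AROM over WT and -0.10 and -0.17 for CERM over BRCA. The 24 shortest subunits, with coding lengths of 156 to 324 bases, had BRCA medians of -0.37 and -0.47 over WT and AROM medians of 0.78 and 1.05 over BRCA. The 24 longest, of 525 to 2181 bases, had -0.20 and -0.40 over WT in BRCA, and 0.67 and 0.80 over BRCA in AROM. Over the 565 or 564 other genes with a mean of at least 100 FPKM the correlation of the BRCA ratio over WT with length was 0.25 and 0.14. The 73 points share the same pooled columns and FPKM's own division by length, so these are descriptions. Long subunits include catalytic and core proteins, so role and length cannot be told apart among them, and these did not all move alike: AROM over BRCA was 0.19 and 0.22 for Ndufs1, 0.10 and 0.33 for Sdha and 0.27 and 0.38 for Atp5a1, but 0.47 and 0.68 for Atp5b and 0.56 and 0.97 for Uqcrc1.

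**Figure D5:**
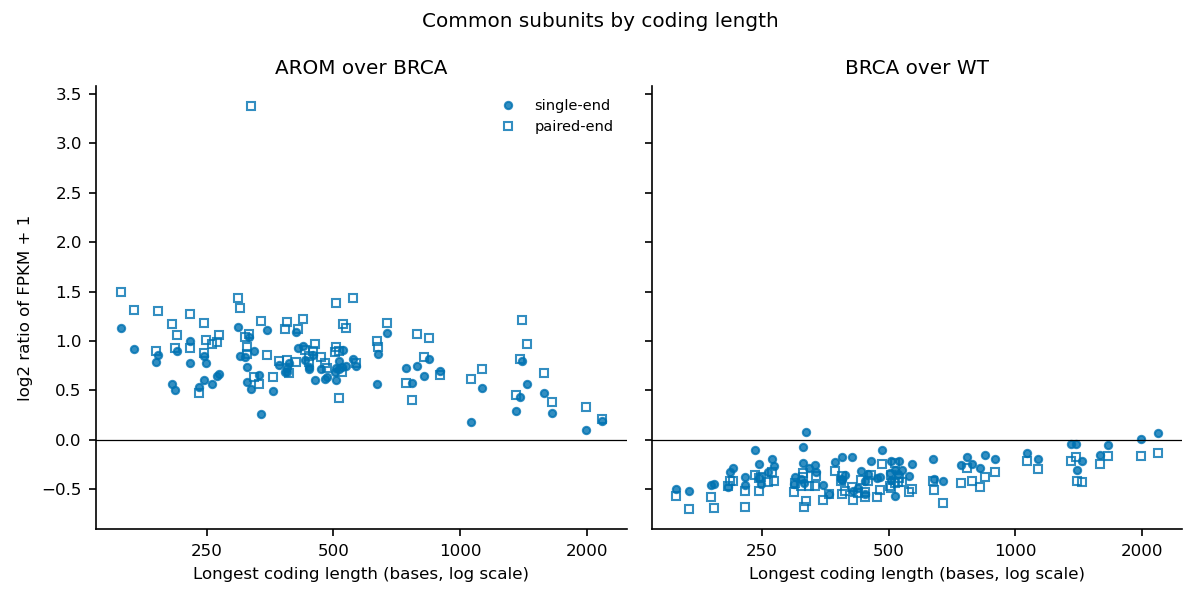
Log2 ratio of (FPKM + 1) of each common subunit against its longest coding length in bases (log scale), for AROM over BRCA (left) and BRCA over WT (right), with filled circles for the single-end and open squares for the paired-end columns. Ndufs1 and Sdha, the longest, lie between -0.16 and 0.33 in both panels, and the point at 3.37 is Ndufs5 in the paired-end columns.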

How the data were processed

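Polyadenylated RNA of whole mammary glands was made into TruSeq libraries and sequenced on a HiSeq instrument, per the labels' protocols. FastQC, Trim Galore, TopHat and Cufflinks with mouse build mm9 are named in the submitters' processing notes; the sources used here do not give versions, the gene annotation or the handling of reads with several matches. The authors deposited their FPKM values as a table of 8 columns, 1 per genotype and read layout, which pool 17 libraries; depth is unknown. FPKM divides by transcript length and library total, so a few very abundant genes can shift all others. The paired-end AROM column had by far the largest summed FPKM.

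The filter (at least 1 FPKM in at least 2 columns), the pseudocount of 1 and the 1.5-fold call were applied with Python 3.11.15, numpy 2.4.6 and pandas 2.3.3 to loci with 1 own symbol, and correlations were computed with scipy 1.17.1. A gene at 0 in either column got no ratio. The calculation was tested on simulated data. Coding lengths come from GENCODE M21 and promoters from RefSeq GRCm38.p6, matched by symbol. Members, lists and comparisons were chosen with earlier results of these data known. Named genes were the isoforms and their partners, the 3 most abundant subunits of each complex, up to 10 members per comparison past the fold in both layouts, members at 0, and up to 3 examples per list; others are said to be chosen later, or illustrate a role or a range. Alternatives were another pseudocount, fold and filter, 2 scalings and other member sets.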

Additional observations from a re-analysis of the deposited data

How the results depend on the processing

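Columns are pooled, so no replicate could be left out. No paired analysis was possible because the columns carry no library of their own. Taking the paired-end WT value out of the single-end WT mean was not run: 565 loci are at 0 in single-end WT and above 0 in paired-end WT, so that column is not a mean that includes it. The 12 medians of the common subunits kept their sign under every setting run, except CERM over BRCA paired-end, which turned to -0.0455 under quantile normalization. Quantile normalization also moved the single-end medians to 0.28 (AROM over WT), -0.10 (BRCA over WT), -0.32 (CERM over AROM), 0.0489 (CERM over BRCA) and 0.36 (AROM over BRCA), and the paired-end ones to 0.21, -0.29, -0.57 and 0.51 for AROM over WT, BRCA over WT, CERM over AROM and AROM over BRCA. Median-ratio scaling moved those 4 paired-end medians to 0.64, -0.56, -0.97 and 1.204. Counts past the fold depended on the setting. No share of all genes is given beside the counts below, so whether they exceed the background was not assessed. Under quantile normalization, AROM over WT had 2 and 6 subunits past 1.5-fold in the single-end and paired-end columns in place of 12 and 28, AROM over BRCA had 13 and 29 in place of 55 and 64, and CERM over AROM had 2 in place of 14 in the single-end columns. Paired-end BRCA over WT had 32 lower subunits under median-ratio scaling and 3 under quantile normalization, in place of 8, and single-end CERM over AROM had 7 under median-ratio scaling. At 2-fold, AROM over WT kept 0 and 1, AROM over BRCA 6 and 28, CERM over AROM 0 and 18, and BRCA and CERM over WT 0 lower subunits. Paired-end CERM over AROM had 36 under quantile normalization and 66 under median-ratio scaling in place of 53, and median-ratio scaling gave 42 in paired-end AROM over WT in place of 28 and 60 and 72 in AROM over BRCA. The other counts under these 2 scalings differed by at most 3 subunits, and those that moved under another pseudocount or member set by at most 2. Under quantile normalization the single-end sign turned for Cox7a1 in BRCA over WT (-0.05 to 0.24) and CERM over BRCA (0.23 to -0.10) and for Cox8b in CERM over BRCA (0.07 to -0.15); under median-ratio scaling the paired-end Cox6a2 value of AROM over WT turned to 0.01. The cause was not tested.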
